A study of Homo sapiens with 2 samples.

Results

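The glycolysis and hypoxia response genes described here are a set of 37 named genes that carry glucose from uptake to lactate, set the level of the hypoxia-inducible factors (HIF), or belong to the known targets of these factors. The list was fixed by gene name, and no fold of these data enters its rule, although earlier results of the same data were known when it was drawn up. All 37 were among the 57736 Ensembl genes of the count table, and 36 had at least 10 reads in both libraries together. An additional entry of the gene set, KDM3A with a suffix, is not a gene symbol and was not counted. KDM3A itself, a histone demethylase gene induced by hypoxia, had 1106 parental and 1441 CARM1 KO reads, a fold of 1.26 (95% counting interval 1.17 to 1.37).

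RNA-Seq was performed in A1847, an epithelial ovarian cancer cell line with high CARM1, to compare parental control cells that are wild type for CARM1 with CARM1 KO cells, in which this arginine methyltransferase gene was targeted by CRISPR with a lentiviral guide vector. There was 1 library per genotype, and the CARM1 KO cells are 1 clone, so effects of the clone, the library and the loss of CARM1 cannot be told apart. Both were grown in the same medium, and no low-oxygen treatment is described for either. The libraries held 30741953 reads (parental) and 32300391 reads (CARM1 KO). CARM1 itself had 975 parental and 380 CARM1 KO reads, 2.65-fold lower (95% counting interval 2.35 to 2.99).

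Cells import glucose through facilitative transporters and trap it by phosphorylation with hexokinase. A preparatory phase then spends ATP to split the sugar, a payoff phase returns ATP and yields pyruvate, and lactate dehydrogenase and monocarboxylate transporters turn pyruvate into exported lactate. HIF is a dimer of an oxygen-labile alpha subunit and the constant subunit ARNT. In oxygen, EGLN prolyl hydroxylases mark the alpha subunit and VHL directs its degradation, so HIF activity is set largely at the protein level, which RNA does not measure. In tumors, many enzymes of glycolysis are HIF targets, and the use of glycolysis in the presence of oxygen is known as the Warburg effect.

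The comparison between the libraries has no replicates, so no test between genotypes was possible. A gene was called higher or lower in CARM1 KO cells when the ratio of its scaled counts was above 1.5-fold, and its exact 95% binomial interval, which covers counting error only, left out 1. A fold above 3, the size used by the study, was counted the same way. In bulk RNA, fewer cells of a type and less RNA per cell cannot be told apart, and this holds for every fold given below. By this rule 12 of the 36 genes were higher and 8 were lower, while 16 were within 1.5-fold. Over all 18563 genes tested, 25.3% were called higher and 25.2% lower, so the shares of the set, 33.3% higher and 22.2% lower, lie near a large background. At 3-fold, 4 genes were higher and 4 were lower, against 12.3% and 11.3% of all genes tested. The median log2 fold of the set was 0.11, compared with -0.04 over all genes tested, and its members ran from -3.15 to 3.75.

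Markers of cell type differed between the libraries. Of 8 ovarian carcinoma and epithelial markers tested, 7 had higher and 1 had lower counts in the CARM1 KO library, and their reads summed to 43988 in parental and 151486 in CARM1 KO cells. PAX8 had 311 and 1149 reads, KRT7 had 4417 and 26653, and KRT19 had 45 and 0, while MUC16 had 0 and 1 and WT1 had 8 and 1. Of 6 fibroblast markers tested, 4 were lower and 1 was higher, with summed reads of 15354 and 689, of which PDGFRA had 14326 and 2 and THY1 had 678 and 4. All 3 leukocyte markers tested were higher, and the list summed to 409 and 1666 reads, nearly all from CD68 with 400 and 1644, and PTPRC, which defines leukocytes, had 6 and 0 reads. Endothelial markers summed to 11 and 12 reads. The part of this difference between the libraries in the folds of glycolysis and hypoxia response genes was not tested.

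The set is well expressed, so it was also read against the 9217 protein-coding genes with at least 500 reads. Of these, 22.0% were higher and 21.7% lower at 1.5-fold, and 6.80% were higher and 5.23% lower at 3-fold. The 31 members above the same minimum had 10 higher and 5 lower at 1.5-fold, and 3 higher and 2 lower at 3-fold. The 8 genes past 3-fold were ANKRD37, EPAS1, PFKP and ENO2 on the higher side and CA12, ALDOC, SLC2A3 and HK2 on the lower side. The glycolysis and hypoxia response genes thus had members called in both directions, at both thresholds.

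**Figure D1:**
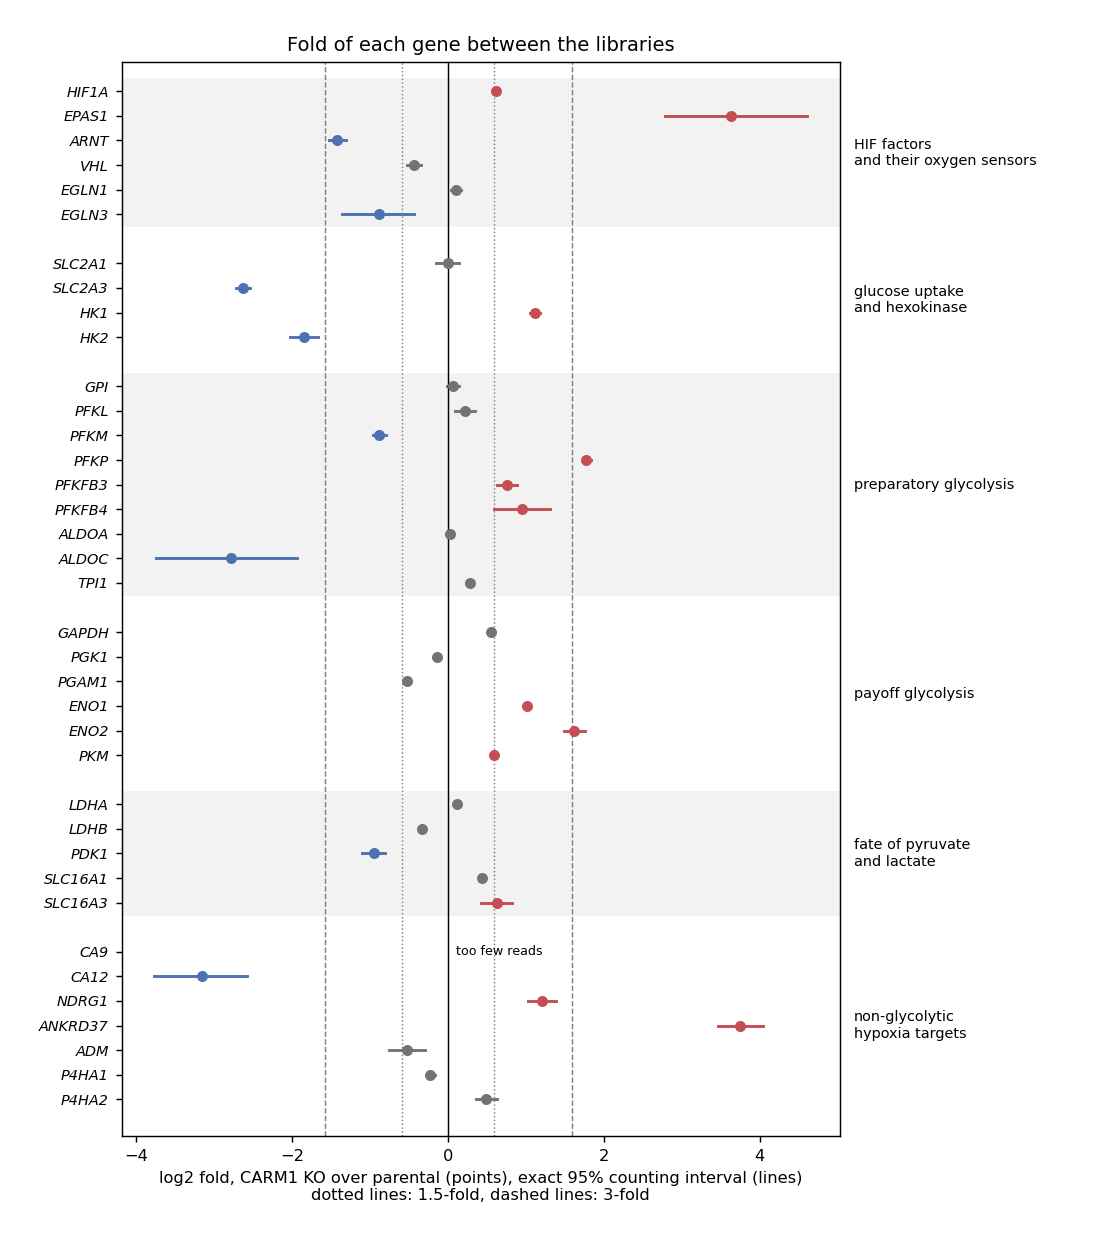
Fold of each gene between CARM1 KO and parental cells on a log2 axis, grouped by role, with 1 library per genotype. Points give the ratio of scaled counts and lines the exact 95% counting interval, in red for the 12 genes called higher, in blue for the 8 called lower and in gray for the others. ANKRD37 and EPAS1 lie farthest to the right and CA12, ALDOC and SLC2A3 farthest to the left.

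The highest and lowest folds of the set belonged to genes with few reads in one of the libraries. ANKRD37, a short ankyrin-repeat gene known as a HIF target, had 106 parental and 1468 CARM1 KO reads. This is a fold of 13.4 (11.01 to 16.5), larger than that of 99.5% of all genes tested. ANKRD37 lies at chr4:186317175-186321782 (GRCh37, plus strand, ENSG00000186352), and 40.4% of its exonic bases are also exonic in UFSP2 on the opposite strand. UFSP2, which was singled out for this overlap, had 1097 and 1436 reads, and how the counting treated strand is not given in the sources used here. Reads from the shared bases therefore cannot be assigned with certainty. CA12, a membrane carbonic anhydrase at chr15:63613577-63674045 (minus strand, ENSG00000074410), was at the other end, with 241 parental and 28 CARM1 KO reads, 8.89-fold lower (6.0 to 13.7).

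The promoters of the genes with the highest and lowest folds are shown because HIF is known to bind a short sequence, the hypoxia response element, whose core is ACGTG or GCGTG. Each is the 250 bases before the annotated start, from RefSeq on GRCh38.p14, written 5′ to 3′ on the strand of the gene, with every match to either core on either strand in capitals.
ANKRD37, chr4:185396591-185396840, plus strand: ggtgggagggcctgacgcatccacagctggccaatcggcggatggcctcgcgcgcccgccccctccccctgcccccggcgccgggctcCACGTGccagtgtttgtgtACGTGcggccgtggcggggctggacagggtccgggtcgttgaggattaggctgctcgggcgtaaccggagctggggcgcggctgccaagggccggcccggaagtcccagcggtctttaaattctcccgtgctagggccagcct
EPAS1, chr2:46297157-46297406, plus strand: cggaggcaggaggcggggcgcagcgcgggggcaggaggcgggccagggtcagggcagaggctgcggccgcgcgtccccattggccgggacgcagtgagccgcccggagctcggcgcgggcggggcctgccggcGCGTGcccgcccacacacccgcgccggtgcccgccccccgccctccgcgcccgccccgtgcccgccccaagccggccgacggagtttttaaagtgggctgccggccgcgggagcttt
ALDOC, chr17:28576896-28577145, minus strand: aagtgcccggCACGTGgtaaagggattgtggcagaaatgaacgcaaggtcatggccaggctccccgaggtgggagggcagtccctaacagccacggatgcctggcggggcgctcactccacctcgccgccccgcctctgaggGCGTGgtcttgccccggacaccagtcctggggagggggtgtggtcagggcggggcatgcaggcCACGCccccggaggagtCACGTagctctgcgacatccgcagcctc
CA12, chr15:63381847-63382096, minus strand: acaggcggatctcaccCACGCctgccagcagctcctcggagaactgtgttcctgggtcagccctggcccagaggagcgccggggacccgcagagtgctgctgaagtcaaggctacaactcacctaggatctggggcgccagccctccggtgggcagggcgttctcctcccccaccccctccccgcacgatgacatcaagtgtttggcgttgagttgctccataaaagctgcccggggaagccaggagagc

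The ANKRD37 promoter held 3 matches to ACGTG, at 162, 161 and 143 bases before the start, of which the first pair is a single palindrome read on both strands. The promoter of EPAS1 held 1 match to GCGTG at 117 bases before the start. On the lower side, ALDOC held 5 matches, 3 of them to ACGTG with the pair at 240 and 239 again a single palindrome, and CA12 held 1 match to GCGTG on the opposite strand. A match to so short a sequence is a description of the letters and not of binding, which was not analysed here.

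Across the set, 33 genes had a RefSeq promoter entry, with 60 windows of 300 bases (250 before and 50 after the start), since some genes have several starts. ACGTG on either strand was present in 22 of the 60 windows, or 36.7%, compared with 26.6% of the windows of protein-coding genes with at least 500 reads and 21.4% of all 35116 windows in the table. Counting GCGTG as well, the shares were 65.0%, 62.4% and 48.4%. Within the set, ACGTG was found in 5 of 26 windows of the genes called higher and in 6 of 15 windows of the genes called lower. Windows of 1 gene can overlap and are not independent.

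Among the HIF factors and their oxygen sensors, 2 of 6 genes were called higher and another 2 lower. The shares of all genes tested were 25.3% higher and 25.2% lower. HIF1A, the main alpha subunit, had 16644 parental and 26361 CARM1 KO reads, a fold of 1.53 (1.504 to 1.564). ARNT, the partner of both alpha subunits, had 2293 and 885 reads, 2.68-fold lower (2.47 to 2.89). The labile subunit was thus higher and its partner lower in the same library. EPAS1, which encodes the second alpha subunit, HIF-2 alpha, had 12 parental and 153 CARM1 KO reads, a fold of 12.3 with a wide interval of 6.87 to 24.4. EPAS1 lies at chr2:46520806-46613836 (GRCh37, plus strand, ENSG00000116016), and its fold was above that of 99.4% of all genes tested. Despite this fold, EPAS1 stayed a minor transcript. As RPKM, the reads per kilobase of the canonical transcript scaled to library size, its level was 0.0751 in parental and 0.927 in CARM1 KO cells, whereas HIF1A was at 136 and 209. EPAS1 thus made up 0.0552% of the alpha subunit level in parental and 0.442% in CARM1 KO cells.

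EGLN1 and VHL differed by less than 1.5-fold between the libraries. EGLN1, the prolyl hydroxylase that acts on HIF in most cells, had 4335 and 4803 reads, a fold of 1.07 (1.03 to 1.12), and VHL, the recognition subunit of the ubiquitin ligase, had 2419 and 1848 reads, 1.35-fold lower (1.27 to 1.44). EGLN3, a prolyl hydroxylase that is itself a HIF target, was much less abundant, with 115 parental and 64 CARM1 KO reads, 1.86-fold lower (1.36 to 2.56). The level of EGLN1 was 32.3 RPKM in parental and 34.6 in CARM1 KO cells, against 1.37 and 0.739 for EGLN3. EGLN2, the remaining HIF prolyl hydroxylase and not a member of the set, was at 21.1 and 19.3 RPKM. Of 10 other regulators of the pathway tested, beside 25.3% higher and 25.2% lower of all genes tested, 0 were higher and 1 was lower. This was EP300, a HIF coactivator with histone acetyltransferase activity, which had 1336 and 674 reads, 2.05-fold lower.

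**Figure D2:**
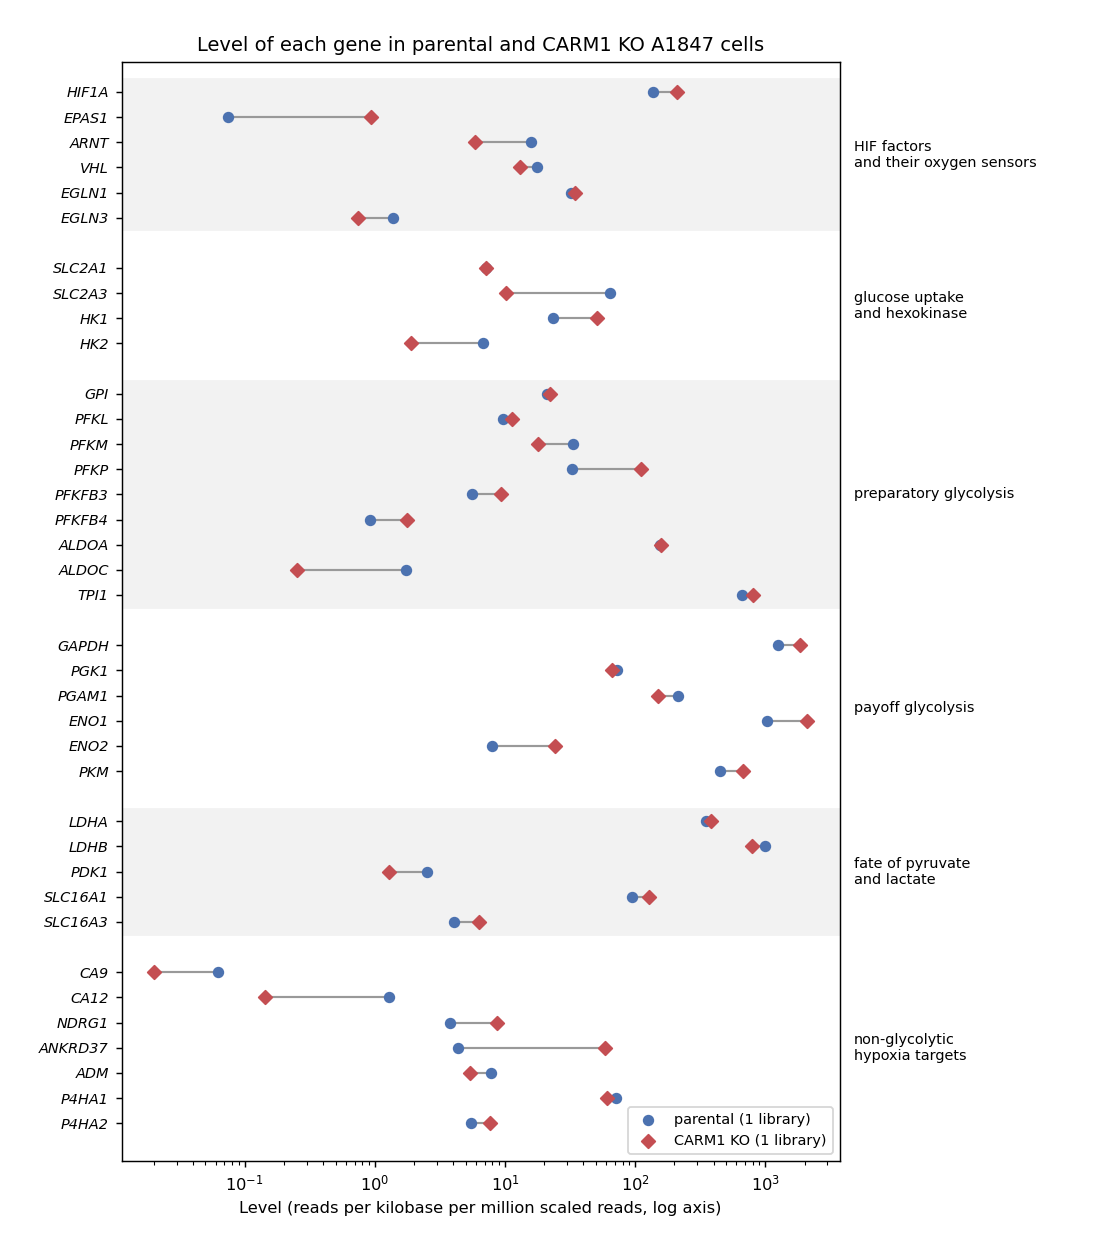
Level of each of the 37 genes in parental (blue circles) and CARM1 KO cells (red diamonds), in reads per kilobase of the canonical transcript scaled to library size (RPKM), on a log axis, with 1 library per point. The levels span from CA9, with 3 and 1 reads, to GAPDH and ENO1 at the far right, and the long connecting lines belong mostly to genes of low or middle level.

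In glucose uptake and hexokinase, 1 of 4 genes was higher and 2 were lower, beside 25.3% and 25.2% of all genes tested. SLC2A3, the high-affinity glucose transporter GLUT3, had 7552 parental and 1256 CARM1 KO reads, 6.21-fold lower (5.85 to 6.60). It lies at chr12:8071826-8171603 (GRCh37, minus strand, ENSG00000059804). SLC2A1, the widespread transporter GLUT1, had 749 and 772 reads, a fold of 0.998 (0.901 to 1.11). The level of SLC2A3 per length was 63.7 RPKM in parental and 10.2 in CARM1 KO cells, and that of SLC2A1 was 7.14 and 7.13, so that SLC2A3 was the higher of both in each library while its share went from 89.9% to 59.0%. The ratio of SLC2A1 to SLC2A3 reads, which needs no scaling, was 6.20-fold higher in CARM1 KO cells (5.50 to 6.98). SLC2A3 has processed pseudogenes of similar sequence between which reads can be divided, and SLC2A3P1 had 757 parental and 858 CARM1 KO reads. When the reads of the pseudogenes were added, SLC2A3 was 4.06-fold lower (3.87 to 4.26), with 8314 and 2114 reads. The shares and the ratio of reads above leave the pseudogenes out.

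The hexokinases differed in opposite directions. HK1, the constitutive isozyme of most tissues, had 2627 parental and 5867 CARM1 KO reads, a fold of 2.16 (2.07 to 2.27). HK2, the inducible isozyme that many tumors use, had 1186 and 341 reads, 3.59-fold lower (3.18 to 4.06), and lies at chr2:75061254-75120486 (GRCh37, plus strand, ENSG00000159399). HK1 already led in parental cells with 77.6% of the level of the pair, and it held 96.4% in CARM1 KO cells. The ratio of HK1 to HK2 reads was 7.77-fold higher in CARM1 KO cells (6.82 to 8.86). The summed level of the pair was 30.3 RPKM in parental and 52.8 in CARM1 KO cells, a fold of 1.74.

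In the preparatory phase, 3 of 9 genes were called higher and 2 lower, beside 25.3% and 25.2% of all genes tested. The phosphofructokinases, which catalyze the committed step, again differed between isozymes. PFKP, the platelet-type isozyme at chr10:3108525-3179910 (GRCh37, plus strand, ENSG00000067057), had 2643 parental and 9353 CARM1 KO reads, a fold of 3.43 (3.28 to 3.58). PFKM, the muscle-type isozyme, had 3171 and 1774 reads, 1.85-fold lower (1.74 to 1.96), and PFKL, the liver type, had 872 and 1048 reads, a fold of 1.16 (1.06 to 1.27). In parental cells PFKM and PFKP were nearly equal, at 43.99% and 43.1% of the family. In CARM1 KO cells PFKP held 79.2%, PFKM 12.8% and PFKL 8.02%. This was the only one of the 12 isozyme families of the set in which the leading isozyme differed between the libraries, and the ratio of PFKP to PFKM reads was 6.32-fold higher in CARM1 KO cells (5.88 to 6.80). With the union of all exons as length, PFKM was further ahead in parental cells, at 49.997% against 38.8% for PFKP. PFKM shares 7.12% of its exonic bases with SENP1 on the opposite strand.

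The PFKFB enzymes make and remove the sugar phosphate that activates phosphofructokinase allosterically, and both members of the set were higher. PFKFB2, outside the set and named after its values were seen, was lower, with 786 and 488 reads (1.66-fold, 1.48 to 1.87). PFKFB3, with the strongest kinase activity of the family, had 773 parental and 1346 CARM1 KO reads, a fold of 1.69 (1.54 to 1.84). PFKFB4 had 100 and 199 reads, a fold of 1.93 (1.51 to 2.47). Their ratio of reads changed by 0.875-fold, with an interval of 0.670 to 1.14 that holds 1. Thus no difference between the folds of PFKFB3 and PFKFB4 was detectable at this depth.

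The remaining preparatory enzymes were abundant and near 1. GPI, which isomerizes glucose 6-phosphate, had 2695 and 2916 reads, a fold of 1.05 (0.994 to 1.10). ALDOA, the main aldolase, had 7927 and 8305 reads, a fold of 1.01 (0.984 to 1.05), and TPI1, which interconverts the triose phosphates, had 27703 and 34702 reads, a fold of 1.21 (1.19 to 1.23). The exception was ALDOC, the brain-type aldolase at chr17:26900133-26903966 (GRCh37, minus strand, ENSG00000109107), with 87 parental and 13 CARM1 KO reads, 6.91-fold lower (3.84 to 13.5). ALDOC made up 1.11% of the aldolase level in parental and 0.159% in CARM1 KO cells, and the summed aldolase level stayed within counting error, at 158 RPKM in both libraries.

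**Figure D3:**
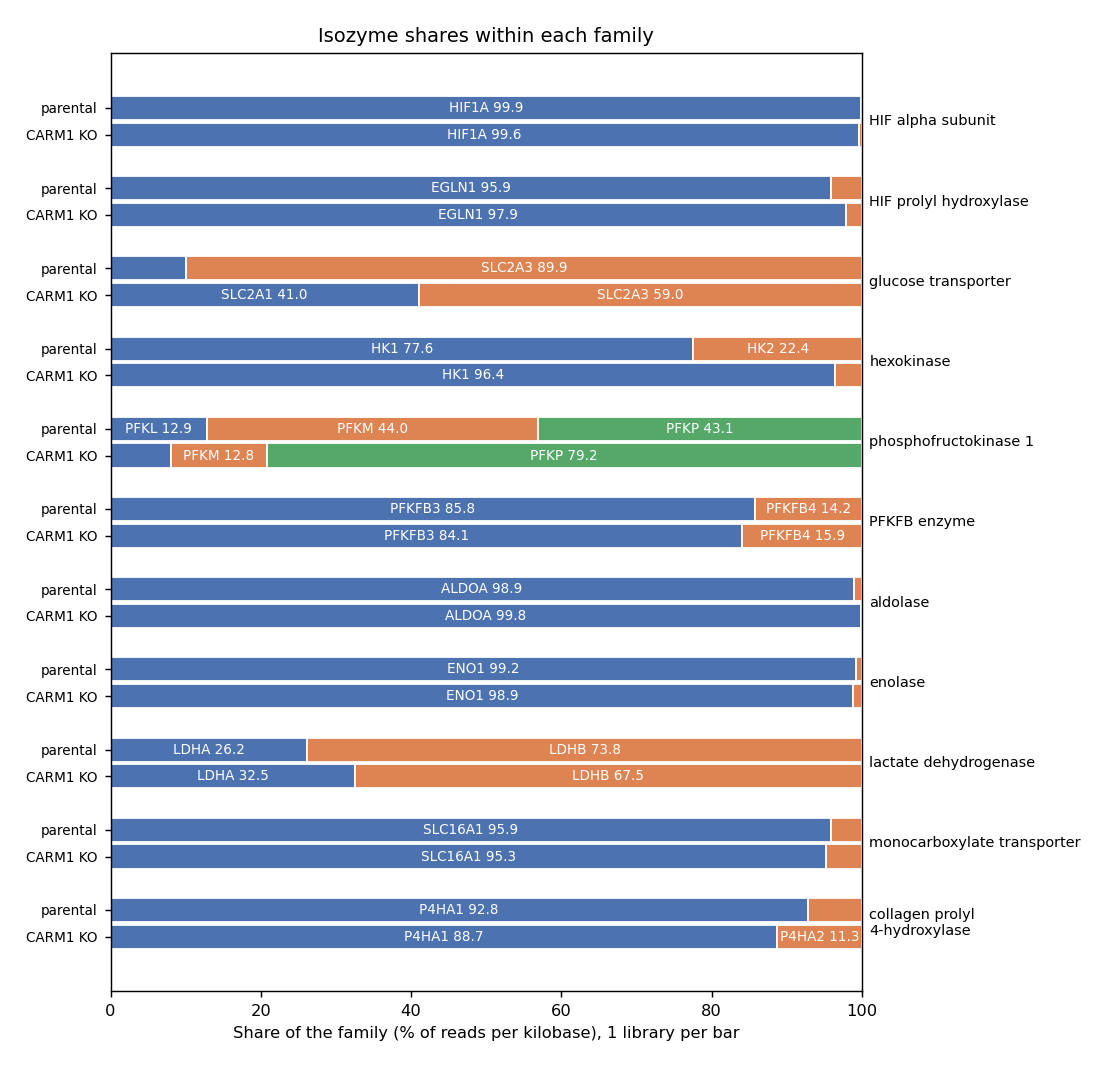
Share of each isozyme among the members of its family in the set, in percent of reads per kilobase (isozymes outside the set, such as EGLN2, PFKFB2, ENO3 and HKDC1, are not included), with a bar for the parental and a bar for the CARM1 KO library of each family. Phosphofructokinase is the family whose leading isozyme differs, with PFKP at 43.1% and 79.2%, the carbonic anhydrases are left out because CA9 had only 3 and 1 reads, and the hexokinase and glucose transporter bars show the next largest differences, while the HIF alpha, aldolase and enolase bars are almost wholly 1 isozyme in both libraries.

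In the payoff phase, 3 of 6 genes were higher and none was lower, beside 25.3% and 25.2% of all genes tested. ENO1, the ubiquitous enolase, had 57036 parental and 119356 CARM1 KO reads, a fold of 2.03 (2.01 to 2.05). Its level went from 1033 to 2094 RPKM, and it took the place of GAPDH as the gene with the highest level in the set. ENO2, the neuron-type enolase at chr12:7022909-7032861 (GRCh37, plus strand, ENSG00000111674), had 561 and 1783 reads, a fold of 3.08 (2.80 to 3.39), but remained at 1.15% of the summed ENO1 and ENO2 level in CARM1 KO cells. PKM, the pyruvate kinase of most dividing cells, had 31897 and 49743 reads, a fold of 1.51 (1.49 to 1.53). Its alternative isoforms cannot be separated in counts per gene.

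GAPDH, which produces NADH and is often used as a reference gene, was just inside the threshold, with 50219 parental and 76187 CARM1 KO reads, a fold of 1.47 (1.45 to 1.49). PKM and GAPDH lie so near 1.5 that the scaling decides on which side they fall. PKM was at 1.48 with library size only, and GAPDH was at 1.51 with upper-quartile scaling. PGK1, the first ATP-generating enzyme of glycolysis, had 10873 and 10154 reads, 1.11-fold lower (1.08 to 1.14), and PGAM1, which moves the phosphate of phosphoglycerate, had 11996 and 8622 reads, 1.44-fold lower (1.40 to 1.48). Consecutive enzymes of the same phase thus had folds on both sides of 1.

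Among the genes that decide the fate of pyruvate and lactate, 1 of 5 was higher and 1 was lower. The shares of all genes tested were 25.3% higher and 25.2% lower. LDHA, whose product favors lactate formation, had 24377 parental and 27236 CARM1 KO reads, a fold of 1.08 (1.06 to 1.10). LDHB, whose product favors the reverse reaction, had 39957 and 32851 reads, 1.26-fold lower (1.24 to 1.27). LDHB had the higher level per length in both libraries, with LDHA at 26.2% of the pair in parental and 32.5% in CARM1 KO cells. PDK1, a kinase that restrains pyruvate dehydrogenase and is a classical HIF target, had 1093 and 584 reads, 1.93-fold lower (1.75 to 2.14).

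The lactate transporters were both above 1. SLC16A1 (MCT1) had 10950 parental and 15235 CARM1 KO reads, a fold of 1.35 (1.32 to 1.38). SLC16A3 (MCT4), the hypoxia-inducible exporter, had 328 and 522 reads, a fold of 1.54 (1.34 to 1.77). SLC16A1 held 95.9% of their level in parental and 95.3% in CARM1 KO cells, and the ratio of their reads changed by 0.874-fold with an interval of 0.757 to 1.01, so their folds were not distinguishable at this depth. SLC16A3 shares 5.22% of its exonic bases with CSNK1D on the opposite strand, which had 906 and 443 reads.

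Summed over the isozymes of the set, the steps of the pathway differed in direction. The uptake level, without the reads of SLC2A3 pseudogenes, was 70.8 RPKM in parental and 17.4 in CARM1 KO cells, 4.07-fold lower. Phosphofructokinase was at 75.3 and 140 RPKM, a fold of 1.87, and enolase at 1041 and 2118 RPKM, a fold of 2.03. Lactate dehydrogenase was 1.15-fold lower and lactate export had a fold of 1.36. Transcripts of the 21 genes of these 13 steps made up 0.961% of the parental and 1.26% of the CARM1 KO library. Most of this difference was carried by ENO1 and GAPDH, without which the shares were 0.612% and 0.658%.

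Of the non-glycolytic hypoxia targets, 2 of the 6 tested were higher and 1 was lower, beside 25.3% and 25.2% of all genes tested. Besides ANKRD37, NDRG1, a stress-responsive gene known as a metastasis suppressor, was higher, with 352 parental and 840 CARM1 KO reads, a fold of 2.31 (2.04 to 2.62). CA12 was the lower gene. CA9, the carbonic anhydrase used as a tissue marker of hypoxia, had 3 parental and 1 CARM1 KO reads and was too low to be compared. Its exons overlap those of ARHGEF39 on the opposite strand by 35.7%.

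ADM, the gene of the vasodilator peptide adrenomedullin, had 358 parental and 257 CARM1 KO reads, 1.44-fold lower (1.22 to 1.69). The alpha subunits of collagen prolyl hydroxylase went different ways within 1.5-fold. P4HA1 had 6023 and 5320 reads, 1.17-fold lower (1.13 to 1.21), and P4HA2 had 775 and 1126 reads, a fold of 1.41 (1.28 to 1.54). The ratio of P4HA2 to P4HA1 reads was 1.64-fold higher in CARM1 KO cells (1.49 to 1.82), although P4HA1 still held 88.7% of their level.

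The folds were set beside those of neighbouring genes, since a gain or loss of a chromosome segment in a clone would move adjacent genes together. For each of the 36 genes, the median log2 fold of up to 40 nearest protein-coding genes was taken, and these medians ran from -0.83 to 0.75. By this measure, 19 genes were above and 17 below the median of their neighbours, 12 were above its upper quartile, and 10 were below its lower quartile. The other genes, among them HIF1A, HK1 and PFKFB3, which were called higher, lay between the quartiles of their neighbours. Quartiles leave part of the neighbours outside on either side by definition. The same count was not made for other genes, so these counts have no background. EPAS1 was above all 40 of its neighbours, whose median log2 fold was -0.82, and ANKRD37 was above 28 of 29. SLC2A3, HK2 and CA12 were each below 39 of 40 neighbours. These 5 genes have folds past 3, so a place beyond most neighbours follows from that choice. ARNT, at -1.42, lay among neighbours with a median of -0.70, NDRG1, at 1.21, among neighbours with 0.75, and PFKP, at 1.78, among neighbours with 0.53, and the part of the surrounding segment in these folds was not tested. Some neighbourhoods overlap, as GAPDH, TPI1, ENO2 and SLC2A3 are near each other on chromosome 12.

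**Figure D4:**
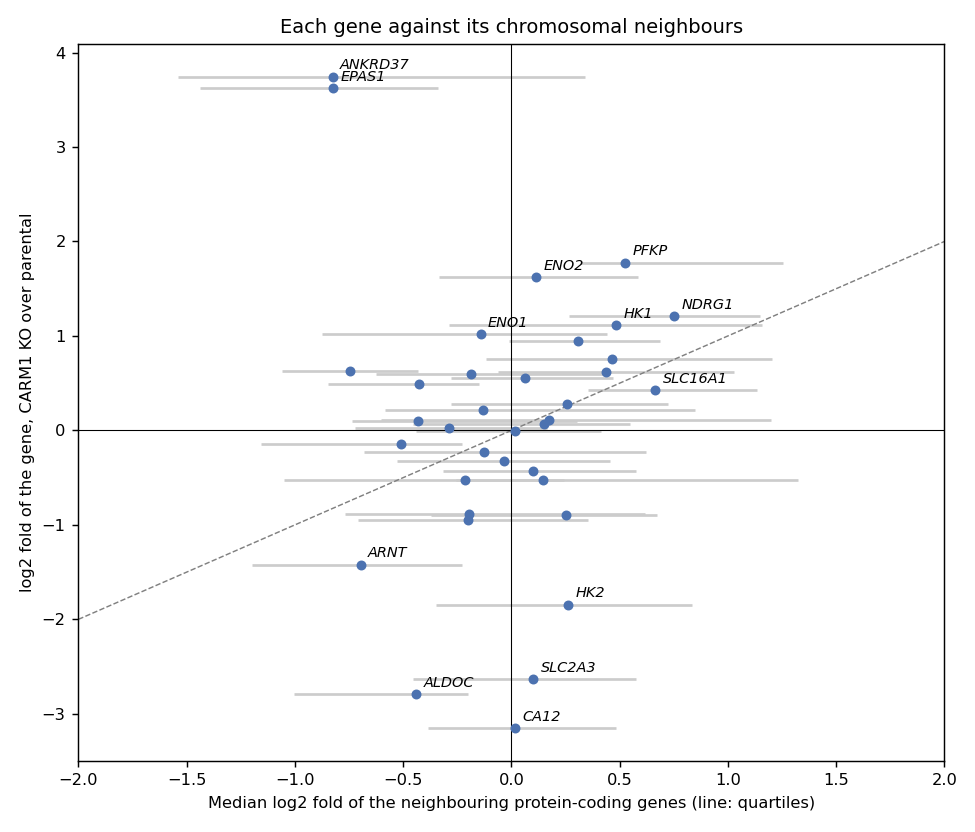
Log2 fold of each of the 36 genes (y axis) against the median log2 fold of its nearest protein-coding neighbours (x axis), with horizontal lines for the quartiles of the neighbours and a dashed line of equality. Of the 36 points, 19 lie above the dashed line. ANKRD37 and EPAS1 lie farthest above it, with neighbours whose medians are -0.83 and -0.82. The part of the surrounding segments in the folds was not tested.

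Other genes of the same pathways were read by the same rule. Of 37 other hypoxia targets tested, 14 were higher (37.8%) and 9 lower (24.3%) at 1.5-fold, beside 25.3% and 25.2% of all genes tested. At 3-fold, 10 were higher (27.0%) and 2 lower (5.41%), beside 12.3% and 11.3%, and the median log2 fold was 0.33. The higher genes included LOX, a collagen cross-linking enzyme, with 52 parental and 829 CARM1 KO reads (15.4-fold), the chemokine receptor CXCR4 with 76 and 578 reads (7.36-fold), and the nuclear receptor RORA with 53 and 402 reads (7.34-fold). PLOD2, a collagen lysyl hydroxylase, had 2249 and 9579 reads, a fold of 4.12. PLOD1, another collagen lysyl hydroxylase of this list and named after its values were seen, was lower, with 2484 and 1521 reads (1.69-fold). On the lower side, DDIT4, an inhibitor of mTORC1 signaling, had 961 and 223 reads, 4.45-fold lower, ANGPTL4 had 121 and 40 reads, 3.12-fold lower, and VEGFA, the angiogenic factor, had 963 and 338 reads, 2.94-fold lower. Known HIF targets outside the set thus also lay on both sides.

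Of 17 other glycolysis genes tested, 3 were higher (17.6%) and 9 lower (52.9%), beside 25.3% and 25.2% of all genes tested, with a median log2 fold of -0.70. This list holds transporters of the SLC2A family and TIGAR besides glycolytic enzymes, so its shares are not those of enzymes alone. HKDC1, a hexokinase-related gene, had 245 parental and 1808 CARM1 KO reads, a fold of 7.15. ENO3, the muscle-type enolase, had 1512 and 262 reads, 5.96-fold lower, and TIGAR, a phosphatase that degrades the activator made by PFKFB enzymes, had 1794 and 520 reads, 3.56-fold lower. Among the 13 genes of pyruvate dehydrogenase and its control, 2 were higher (15.4%) and 3 lower (23.1%). Of the higher genes, PDK4, a kinase of the complex like PDK1, had 5 and 80 reads, a fold of 15.5, and PDP1, the phosphatase that opposes these kinases, had 1690 and 5477 reads, a fold of 3.14.

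Relatives of the non-glycolytic members were read in the same way, beside 25.3% higher and 25.2% lower of all genes tested. Of 7 other carbonic anhydrases tested, 2 were higher and 4 lower. CA14 had 1062 parental and 0 CARM1 KO reads, which is 366-fold lower when 0 is set to 3 reads. Its 95% counting interval starts at 297-fold lower. CA11 had 638 and 32 reads, 20.6-fold lower, and CA13 had 73 and 330 reads, a fold of 4.38. All 3 other NDRG genes were higher, with folds from 1.82 for NDRG3 to 2.32 for NDRG4. Of the 5 other collagen hydroxylases, 2 were higher and 1 was lower. P4HA3 had 9 and 95 reads, a fold of 10.2, and P3H1 had 981 and 488 reads, 2.08-fold lower. Over these and the other lists of pathway genes, 33 of 127 genes tested were higher (26%) and 36 lower (28.3%), with a median log2 fold of -0.03. These shares lie near those of all genes tested.

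**Figure D5:**
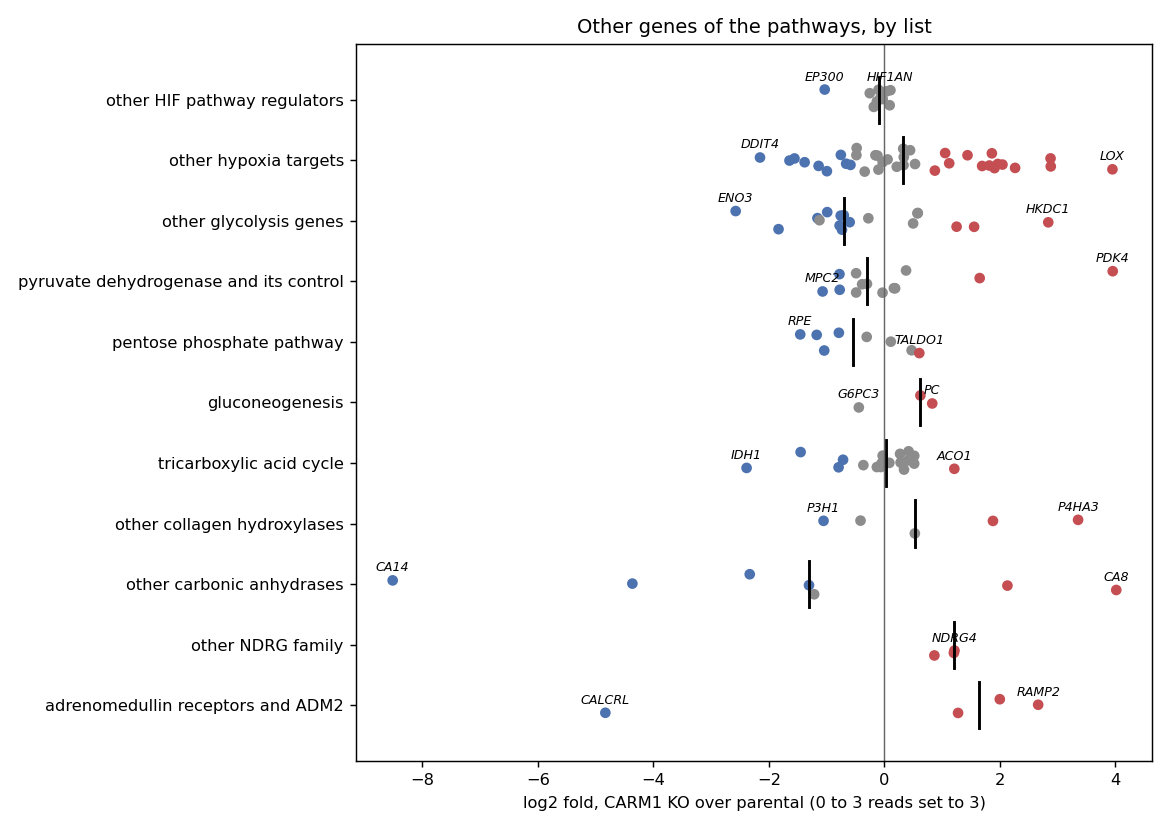
Log2 fold of other genes in 11 lists of related pathways, CARM1 KO over parental, with a point per tested gene, red for higher, blue for lower and gray for neither, and a black bar at the median of each list. Points are spread vertically only for legibility, and counts of 0 to 3 reads were set to 3. Other hypoxia targets reach from DDIT4 to LOX, and the bar of the other glycolysis genes lies at -0.70.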

How the data were processed

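The authors aligned 75 bp paired-end reads to hg19 with bowtie2 and deposited counts per Ensembl gene estimated by RSEM, as unnormalized whole numbers. Reads that match several genes are shared out by RSEM. The strand setting and the Ensembl release are not given in the sources used here. Both count columns were used.

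Identifiers were named with GENCODE 44 lifted to GRCh37 (55501 of 57736 matched). Counts were scaled by TMM in edgeR 4.0.16 (R 4.3.3) over genes whose reads summed to at least 10, which gave a CARM1 KO to parental scale of 1.033. Exact binomial intervals came from scipy 1.17.1, and intervals of read ratios from the conditional Fisher method. Counts of at most 3 were set to 3 for log2 values in medians. RPKM values and isozyme shares use the canonical transcript length. Neighbours were the 20 nearest protein-coding genes on each side with at least 50 reads. Steps were tested on simulated data. With 1 library per group edgeR's quasi-likelihood test has no residual degrees of freedom, so no p is given, and the libraries of 30741953 and 32300391 reads bound only counting error.

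All members are named. From other lists, genes past 3-fold and the 3 highest and 3 lowest with at least 50 reads may be named, together with CARM1, KDM3A, overlapping genes and pseudogenes, and the markers. The members and lists were chosen with earlier results of these data known. G6PC and PECAM1 were not matched, and 1 listed gene is not reported here. Alternatives were size factors of DESeq2 1.42.0, upper quartiles or library size as scaling, other read minimums, a prior count of 2, edgeR exact tests with assumed coefficients of variation, exon-union lengths and other numbers of neighbours.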

Additional observations from a re-analysis of the deposited data

How the results depend on the processing

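No paired analysis was possible because each genotype has 1 library, and for the same reason no library could be left out. Under 3 other scalings and 2 other read minimums, the set had 11 to 13 genes higher and 8 lower at 1.5-fold, and 4 and 4 at 3-fold, with a median log2 fold of 0.08 to 0.14. The changes were PKM, at 1.48 with library size only and 1.49 with a minimum of 50 reads, and GAPDH, at 1.51 with upper-quartile scaling. edgeR's exact test at a false discovery rate of 0.05 and a fold above 3 called the same 4 higher and 4 lower genes with an assumed coefficient of variation of 0.12. At that setting it called 11.8% of all genes tested higher and 10.6% lower, near the 11.1% of the set in each direction. With 0.4 it called 2 higher (ANKRD37 and EPAS1) and 2 lower (CA12 and SLC2A3), since a larger assumed spread asks for larger folds. The shares of all genes tested were then 2.87% and 4.82%. Of 216 values of single genes under the alternatives, none of a gene called higher or lower changed sign. SLC2A1 and ALDOA, both close to 0, did: SLC2A1 went from -0.0028 (log2) to 0.014 with DESeq2 size factors, 0.033 with upper-quartile scaling and 0.0096 with a minimum of 1 read, and ALDOA from 0.021 to -0.0043 with library size only. Phosphofructokinase remained the only family (1 of 12) with a different leading isozyme when exon-union lengths were used. Of 25 shares in CARM1 KO cells, 16 were counted as moved, such as that of HK2 from 3.59% to 6.33%. This count does not follow counting error, since it includes CA9 with 1 CARM1 KO read. Between 19 and 21 genes lay above the median of their neighbours with 10, 20 or 40 genes on each side. The pathway lists, for which alternatives were chosen after seeing the data, had 32 to 35 genes higher and 34 to 36 lower. Counting error limits EPAS1, ALDOC, CA12 and CA9 the most.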

Other observations

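Branches from glycolysis showed the following values, beside 25.3% higher and 25.2% lower of all genes tested. Of 8 genes of the pentose phosphate pathway, 1 was higher and 4 were lower in CARM1 KO cells, with a median log2 fold of -0.55. RPE, which interconverts pentose phosphates, had 2534 parental and 953 CARM1 KO reads, 2.75-fold lower, PGD, an NADPH-producing dehydrogenase, had 4741 and 2378, 2.06-fold lower, and TALDO1, the transaldolase, had 2634 and 4135, a fold of 1.52. Of 20 genes of the tricarboxylic acid cycle, 1 was higher and 4 were lower, with a median log2 fold of 0.03. The cytosolic aconitase ACO1 had 920 and 2199 reads, a fold of 2.31, and IDH1, the cytosolic isocitrate dehydrogenase, had 2632 and 520, 5.23-fold lower. Of 3 gluconeogenesis genes tested, 2 were higher, and PCK2, the mitochondrial enzyme, had 640 and 1018 reads, a fold of 1.54.

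Of 4 tested genes of adrenomedullin signaling outside the set, 3 receptor components and the ligand ADM2, 3 were higher and 1 was lower. By the same rule, 25.3% of all genes tested were higher and 25.2% lower. CALCRL, the receptor chain, had 386 parental and 14 CARM1 KO reads, 28.5-fold lower, whereas RAMP2, which makes it a receptor for adrenomedullin, had 13 and 85, a fold of 6.33. With 1 library per genotype these are differences between the libraries.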
